A study of Homo sapiens with 8 samples.

Results

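Hepatic stellate cells (HSCs), the fibrogenic cells of the liver, share a set of neural, filament and adhesion markers, and 10 genes of this set were examined in LX-2 cells out of 16796 genes in the count files. They were chosen by symbol: the filament genes VIM, DES, GFAP and NES, the neural genes SYP and RELN, the globin gene CYGB, and the adhesion genes NCAM1, ALCAM and THY1. The choice was made with the difference between OGTi and control in these same libraries in view, so that difference is given for the 10 genes as a description and supports nothing by itself. LX-2 is an established human line of activated HSCs. The cells grew in DMEM with 5% fetal bovine serum, and for 24 h they received either DMSO (control) or, in DMSO, 50 µM OSMI-1, an inhibitor of the O-GlcNAc transferase OGT (OGTi). Each group held 4 libraries, given as biological replicates numbered 1 to 4, and the study paired the libraries of the same number. A single line in culture models HSCs only in their activated state, without the other cells of the liver.

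As background, quiescent HSCs store vitamin A, and after injury they become myofibroblasts that secrete collagen. Although they are mesenchymal, they carry proteins better known from muscle, neurons and glia. Vimentin, desmin, glial fibrillary acidic protein and nestin are subunits of cytoplasmic intermediate filaments, which give cells their resistance to strain. Synaptophysin is a membrane protein of synaptic vesicles, and reelin is a secreted glycoprotein that guides migrating neurons. Cytoglobin is an oxygen-binding globin used to tell HSCs from portal fibroblasts, which are in turn often recognised by THY1. NCAM1 and ALCAM are adhesion molecules of the immunoglobulin superfamily.

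The libraries held 24166756 to 28201215 counts, and 12829 to 13180 genes reached 10 counts in a library. None was a copy of another of its group, since chi-square per degree of freedom between replicates of a group was 8.66 to 36.2. Control and OGTi libraries were not compared in this way. Of the HSC and myofibroblast markers checked, COL1A1 stood at 84778 ± 5373 normalized counts in control libraries and ACTA2 at 717 ± 312 (SD, n = 4), while LRAT, which serves vitamin A storage, and DCN had at most 13.5 counts in all 8 libraries together. To normalize, each count was divided by its library's size factor. Of the 14028 genes with an adjusted p-value (q, DESeq2), 46.6% were called, which means a q of 0.05 or lower. Genes called higher in OGTi made up 22.7% and genes called lower 24%.

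Of the 10 genes, 9 had at least 10 counts in total and entered the comparison, and GFAP did not. DES and CYGB were too low to be given a q. Of the 7 genes with a q, 4 were called, SYP and ALCAM higher and RELN and THY1 lower, while VIM, NES and NCAM1 were not called. Nothing is read from this count, since the 10 genes were proposed from the same comparison. Without the replicate number in the model, 2 were called, SYP and RELN. Those are also the genes in which the 4 OGTi libraries did not overlap with the 4 control libraries, as in 38% of the 14895 genes compared. In bulk RNA, fewer cells with a transcript and less transcript per cell cannot be told apart.

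**Figure D1:**
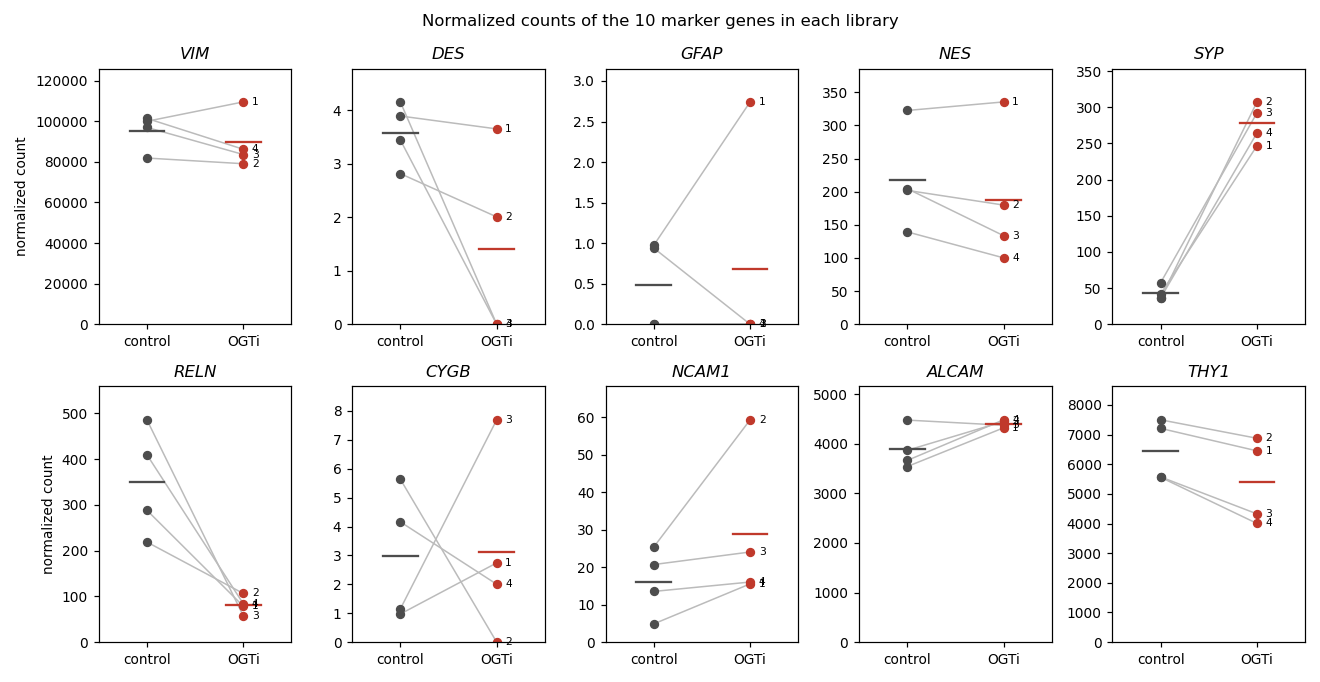
Normalized counts (vertical axes, each from 0) of the 10 genes in control (grey) and OGTi (red) libraries, with lines joining libraries of the same replicate number (digits) and bars at the group means, n = 4. SYP runs from 35.7 to 57.5 in control and from 247 to 307 in OGTi, RELN from 219 to 486 and from 57.7 to 106, and the other panels overlap between groups.

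The levels of the 10 genes spanned several orders of magnitude. Per kilobase of the longest annotated protein-coding transcript, control libraries held 44144 ± 4171 normalized counts of VIM, 1434 ± 231 of THY1 and 827 ± 88 of ALCAM (SD, n = 4), and the ranges of these 3 genes did not overlap. NES followed at 39.0 ± 13.7, RELN at 30.0 ± 10.2 and SYP at 17.7 ± 4.2 normalized counts per kilobase. The ranges of NES and RELN overlapped, as did those of RELN and SYP. The lowest genes were NCAM1 at 2.77 ± 1.54, DES at 1.60 ± 0.26, CYGB at 1.52 ± 1.17 and GFAP at 0.087, and NCAM1, DES and CYGB could not be ordered beyond their spread. Among the genes compared that had an annotated length, the control level per kilobase of VIM stood at the 99.95th percentile and that of SYP at the 21.0th.

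In OGTi libraries SYP moved from the sixth to the fourth place, at 115 ± 11 normalized counts per kilobase. It stood above NES (33.6 ± 18.7) with no overlap. RELN, at 6.98 ± 1.71, overlapped with NCAM1 at 4.93 ± 3.56. VIM, at 41612 ± 6316, still stood above all others, and the ranges of THY1 (1202 ± 324) and ALCAM (937 ± 16) now overlapped. The order rests on the transcript taken as length. With the shortest one, SYP (56.3) stood above NES (39.0) in control libraries already, and NCAM1 (32.1) above RELN (30.3).

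**Figure D2:**
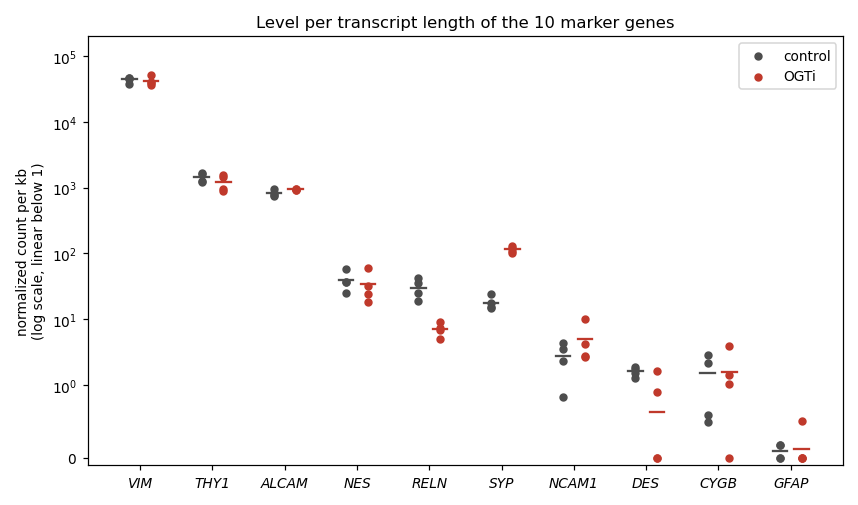
Normalized counts per kilobase of the longest protein-coding transcript (vertical axis, logarithmic above 1 and linear below) of the 10 genes in 4 control (grey) and 4 OGTi (red) libraries, with bars at the group means. VIM stands at 44144 and 41612, and SYP rises from 17.7 to 115, past NES and RELN.

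VIM (chromosome 10, 17228241 to 17237593, plus strand, GRCh38) encodes vimentin, the main filament protein of mesenchymal cells. Control replicates 1 to 4 held 100008, 81899, 96998 and 101437 normalized counts, and OGTi replicates 1 to 4 held 109557, 79105, 83641 and 86226. The groups overlapped, and OGTi replicate 1 was the highest library and OGTi replicate 2 the lowest. The log2 fold change of OGTi over control was -0.09 ± 0.07 (SE, DESeq2), with a 95% interval from -0.24 to 0.05, and 3 of 4 pairs were lower. VIM was not called. Among the alternatives it was called only without replicate 1, at -0.16. VIM alone made up 0.309% to 0.379% of all counts in control libraries and 0.308% to 0.434% in OGTi libraries, and it ranked from the 8th to the 13th most abundant gene.

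The other filament genes contributed little RNA. NES (chromosome 1, 156668763 to 156677407, minus strand) encodes nestin, a filament protein of neural progenitors that assembles with vimentin. Its normalized counts in replicates 1 to 4 were 322, 202, 205 and 139 in control and 335, 180, 134 and 100 in OGTi. Replicate 1 was the highest and replicate 4 the lowest in both groups, and the groups overlapped. Its log2 fold change was -0.29 ± 0.18, with a 95% interval from -0.65 to 0.07, and NES was not called.

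DES (chromosome 2, 219418377 to 219426735, plus strand) encodes desmin, the filament protein of muscle and the classical HSC marker in rodents. It had 4, 3, 3 and 4 counts in control replicates 1 to 4 and 4, 2, 0 and 0 in OGTi, which sums to 14 and 6. The 0 counts of OGTi replicates 3 and 4 allow up to 0.113 and 0.120 CPM (counts scaled to a common library total). A log2 fold change of -2.10 ± 1.58 had no q, and it ran from -3.08 without replicate 1 to -1.34 without replicate 4, so at this depth no difference was detectable. GFAP (chromosome 17, 44903159 to 44916937, minus strand), the filament gene of astrocytes, had 1 count in each of control replicates 1 and 2, 3 counts in OGTi replicate 1 and 0 in the other 5 libraries. It was at or under the limit that a count of 0 allows in every library, so no fold is given.

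Taken per kilobase, VIM made up 99.87% to 99.96% of the RNA of these 4 filament genes. Over 20 cytoplasmic filament genes, keratins and neurofilaments included, its share was 76.8% to 81.5% in control libraries and 79.5% to 86.3% in OGTi libraries, which overlap.

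The other intermediate filament genes were mostly lower. Of 17 with a q, 12 fell, 2 rose and 3 were not called, with a median log2 fold change of -0.61 over the 18 compared, beside 0.0045 over all genes. The background for this and each later list is all genes with a q, of which 22.7% rose and 24% fell. No list was tested as a set. KRT80, an epithelial keratin, went from 1856 ± 468 to 557 ± 228 normalized counts (log2 fold change -1.79 ± 0.11, DESeq2 q = 1.83e-57). The nuclear lamin gene LMNB2 fell by 0.80 ± 0.06 on the log2 scale (DESeq2 q = 2.07e-35), and LMNA, the lamin found in most differentiated cells, by 0.21 ± 0.07 (DESeq2 q = 0.00478; not called without replicate 4). The remaining filament genes here were named after their values were seen. The keratin pair KRT8 and KRT18 fell by 0.40 ± 0.08 and 0.39 ± 0.08. SYNC, encoding syncoilin, a binding partner of desmin, fell by 1.33 ± 0.12 (DESeq2 q = 2.65e-27). The rises were SYNM (synemin, which needs vimentin or desmin to form filaments) by 0.35 ± 0.11 and INA (alpha-internexin, a neuronal filament protein) by 0.22 ± 0.08, and neither was called in every alternative.

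Of 8 filament linkers and chaperones with a q, 1 rose, 2 fell and 5 were not called (median -0.11 over the 9 compared). HSPB1, a small heat shock protein that associates with filaments, rose by 0.35 ± 0.08 (DESeq2 q = 3.15e-05). PPL, encoding the cornified envelope linker periplakin, went from 76.1 ± 41.9 to 22.9 ± 7.4 normalized counts. PLEC, the main linker of vimentin to other cytoskeletal structures and named after its values were seen, had a log2 fold change of 0.08 ± 0.07 (DESeq2 q = 0.389).

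SYP (chromosome X, 49187815 to 49200218, minus strand), the synaptophysin gene, had the greatest rise of the 10 genes. Control replicates 1 to 4 held 41.9, 35.7, 57.5 and 36.4 normalized counts. OGTi replicates 1 to 4 held 247, 307, 292 and 264. Every OGTi library stood above every control library. From 42.9 ± 10.1 the mean went to 278 ± 27 (SD, n = 4), with a log2 fold change of 2.71 ± 0.22 or 6.55-fold. It was higher in 4 of 4 pairs and 2.58 to 2.84 when any replicate was left out. By size of the change SYP ranked 50 among the 3181 genes called higher. The values rest on 166 counts in control and 1144 in OGTi.

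The sequences just upstream of SYP and RELN are shown because these are the genes whose groups did not overlap. The promoters of SYP, VIM, NES, RELN and ALCAM were matched in RefSeq (GRCh38.p14), and DES, GFAP, NCAM1, CYGB and THY1 were not. Each sequence is the 250 bases before the RefSeq start, 5′ to 3′ on the strand of the gene, for SYP chrX:49200194-49200443 (minus strand) and for RELN chr7:103989659-103989908 (minus strand). For SYP, the gene given above from GENCODE starts on this strand at 49200218, inside this stretch. The last bases shown for SYP, with its last GC box, therefore lie within that annotated gene. Capitals mark GC boxes (GGGCGG on either strand) and, in SYP, the TEAD site (GGAATG on either strand).
SYP: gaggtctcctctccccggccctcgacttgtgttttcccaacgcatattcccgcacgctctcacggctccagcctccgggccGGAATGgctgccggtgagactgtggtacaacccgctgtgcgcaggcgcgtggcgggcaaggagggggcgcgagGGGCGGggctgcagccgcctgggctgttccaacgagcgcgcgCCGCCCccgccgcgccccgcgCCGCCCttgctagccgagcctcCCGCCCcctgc
RELN: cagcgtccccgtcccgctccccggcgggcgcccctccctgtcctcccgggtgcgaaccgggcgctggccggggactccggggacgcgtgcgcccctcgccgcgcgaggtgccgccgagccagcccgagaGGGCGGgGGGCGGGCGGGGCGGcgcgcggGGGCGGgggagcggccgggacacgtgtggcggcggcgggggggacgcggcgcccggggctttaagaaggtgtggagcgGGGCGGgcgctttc

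The SYP sequence had 74% G and C and 31 CpG dinucleotides, and that of RELN had 83.2% and 43. Over 35116 promoters of the same length the median was 58% (quartiles 46.4% and 68%) and 11 CpG. SYP had 4 GC boxes, 96, 54, 33 and 11 bases before the start, and RELN had 6, of which some overlap each other. At least 1 GC box was present in 42.6% of all promoters. SYP had 1 TEAD site, 169 bases before the start, and 11.9% of all promoters had one. TATAAA (10.7% of all promoters), CCAAT (32.0%) and CAGCACC, part of the site of the repressor REST (6.16%), were found in neither sequence on either strand. Of the matched promoters, that of NES had CAGCACC, 132 bases before the start. A match of letters does not show binding.

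No relative of SYP was called higher. Synaptophysin belongs to a family of vesicle proteins of which SYPL1 and SYNGR2 are the forms common outside neurons. SYPL1 had a log2 fold change of -0.16 ± 0.08 (DESeq2 q = 0.0999) and SYNGR2 one of 0.06 ± 0.09 (DESeq2 q = 0.597). SYNGR1 and SYNGR3, named after their values were seen, fell by 0.64 ± 0.12 and 1.19 ± 0.34. Per kilobase, SYP made up 0.752% to 1.37% of the RNA of the 8 genes of this family in control libraries and 5.56% to 7.37% in OGTi libraries.

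Over the wider list of synaptic vesicle and fusion genes, 5 of 27 with a q rose, 5 fell and 17 were not called, with a median log2 fold change of -0.06 over the 28 compared. The vesicle SNARE gene VAMP1 rose by 1.10 ± 0.12 (DESeq2 q = 2.36e-19). Of 7 dense core and neuroendocrine genes with a q, 3 rose, 0 fell and 4 were not called (median 0.36 over the 8 compared). UCHL1, a neuronal deubiquitinase, rose by 0.46 ± 0.07 (DESeq2 q = 2.77e-09), and VGF, a secreted neuropeptide precursor, by 1.32 ± 0.31 (DESeq2 q = 7.85e-05). The third was the neuronal enolase ENO2, named after its values were seen, at 0.26 ± 0.08, and not called without replicate 3 or 4.

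Among 8 neuron and glia markers with a q, 4 rose, 1 fell and 3 were not called, with a median of 0.63 over the 10 compared. RBFOX3, the neuronal splicing factor NeuN, went from 12.7 ± 6.7 to 116 ± 66 normalized counts, which is 3.18 ± 0.36 on the log2 scale (DESeq2 q = 3.77e-17, 4 of 4 pairs). TUBB3, a neuronal beta-tubulin, rose by 1.22 ± 0.10 (DESeq2 q = 2.47e-32). The remaining genes called, named after their values were seen, were the dendritic microtubule protein MAP2, which rose by 2.26 ± 0.28, the myelin gene MBP, which rose by 0.57 ± 0.23 and was not called without the block or without replicate 1, 2 or 3, and the postsynaptic scaffold gene DLG4, which fell by 0.61 ± 0.13. A list of 10 markers that define neurons and glia, 7 of which were analysed here, summed to 31.3 to 43.0 normalized counts per kilobase in control libraries and 63.9 to 114 in OGTi libraries. Of the 5 with a q, RBFOX3 and MBP rose, and SNAP25, SYN1 and OLIG2 were not called, while DCX had 2 counts in all 8 libraries together. The part of this in the rise of SYP was not tested.

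REST represses neuronal genes in cells outside the nervous system, with the help of corepressors and of the CTDSP phosphatases. REST itself went from 1514 ± 176 to 1059 ± 92 normalized counts, and its log2 fold change was -0.51 ± 0.11 (DESeq2 q = 1.59e-05). CTDSP2 fell by 0.97 ± 0.07 and CTDSP1 by 0.90 ± 0.10. Of the 12 genes of this list 1 rose, 5 fell and 6 were not called, beside 46.6% called over all genes. The median over the 12 was -0.14. Whether these levels bear on SYP was not tested.

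Genes were compared with SYP by their 4 per-pair log2 ratios, out of 11702 whose normalized counts averaged 50 or more over all 8 libraries. The most like it were ARC, TLCD1 and GGN. Their root mean square differences from SYP over the 4 pairs were 0.202, 0.242 and 0.323. ARC, an activity-dependent gene of neurons, had a log2 fold change of 2.57 ± 0.35, TLCD1 one of 2.63 ± 0.24 and GGN one of 2.93 ± 0.37. These fold changes near that of SYP follow from the match, which used the same ratios. In control libraries ARC averaged 17.1, TLCD1 38.2 and GGN 11.6 normalized counts, so they passed the filter of 50 only through their OGTi libraries. Neither of the genes nearest to SYP on the chromosome was called. PRICKLE3, 1.29 kb away, had about 4 normalized counts and a log2 fold change of -0.0056 ± 1.18 (DESeq2 q = 0.998), which took the other sign when replicate 1, 2 or 4 was left out. CCDC22, 35.3 kb away on the other side, had one of 0.18 ± 0.10 (DESeq2 q = 0.125).

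RELN (chromosome 7, 103471381 to 103989658, minus strand) had the greatest fall of the 10 genes among those with at least 50 normalized counts. Control replicates 1 to 4 held 288, 219, 486 and 410 normalized counts. OGTi replicates 1 to 4 held 78.6, 106, 57.7 and 84.1. Every OGTi library stood below every control library. From 351 ± 120 the mean went to 81.7 ± 20.1 (SD, n = 4), with a log2 fold change of -2.07 ± 0.41, or 4.19-fold lower. The single pairs differed in size, with log2 ratios of -1.86, -1.03, -3.05 and -2.27 for replicates 1 to 4. Replicate 2 had the lowest control and the highest OGTi value, and replicate 3 the reverse. RELN ranked 129 among the 3360 genes called lower, and the change was between -2.40 and -1.74 when any replicate was left out.

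Reelin acts through the lipoprotein receptors encoded by VLDLR and LRP8, which pass the signal to the adaptor DAB1, to SRC family kinases and to the LIS1 complex. Neither receptor gene was called lower. LRP8 rose from 1733 ± 231 to 3190 ± 354 normalized counts, by 0.88 ± 0.10 (DESeq2 q = 2.11e-17). VLDLR, at 131 ± 17 and 148 ± 30, was not called (0.16 ± 0.21, DESeq2 q = 0.550). NDE1, a partner of LIS1, fell by 0.68 ± 0.08 (DESeq2 q = 2.25e-17), and PAFAH1B1, the LIS1 gene itself and named after its values were seen, by 0.46 ± 0.07. Of the 16 genes of the pathway 1 rose, 6 fell and 9 were not called, beside 46.6% called over all genes. The median over the 16 was -0.03.

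The genes most like RELN over the 4 pairs were PLEKHG4B, PSG1 and ACTG2, with root mean square differences of 0.148, 0.366 and 0.440. PLEKHG4B fell by 2.05 ± 0.25, PSG1 by 2.40 ± 0.27 and the smooth muscle actin gene ACTG2 by 2.14 ± 0.13. Their falls near that of RELN likewise follow from the match. PSG1 averaged 41.9 normalized counts in OGTi libraries and passed the filter of 50 through its control libraries. SLC26A5, 25.2 kb from RELN, had a log2 fold change of 0.20 ± 0.38 (DESeq2 q = 0.706). ORC5, 137 kb away on the other side, rose by 0.48 ± 0.10 (DESeq2 q = 1.93e-05).

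**Figure D3:**
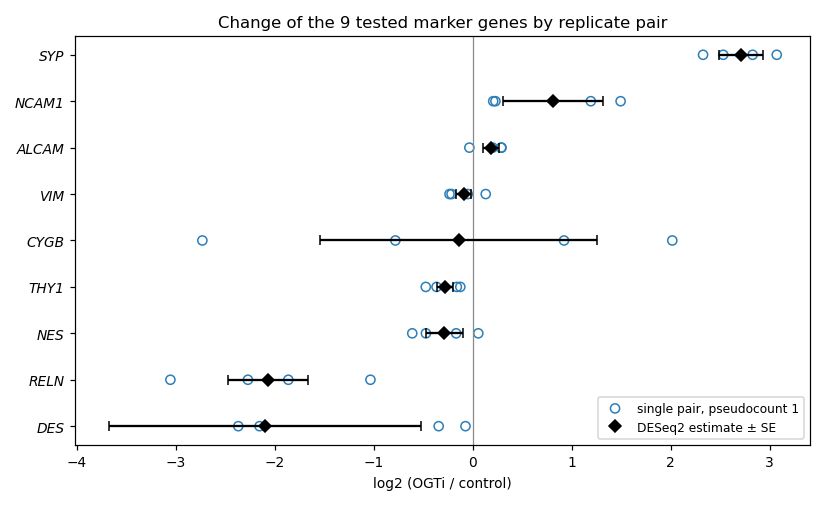
Log2 ratio of OGTi to control (horizontal axis) for the 9 genes compared, with an open circle for each of the 4 replicate pairs (pseudocount 1) and a diamond with its standard error for the DESeq2 estimate. SYP stands at 2.71 and RELN at -2.07 with every pair on 1 side of 0, while DES and CYGB have standard errors of 1.58 and 1.40.

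CYGB (chromosome 17, 76527356 to 76551175, minus strand), the cytoglobin gene, was close to the detection limit. It had 1, 6, 1 and 4 counts in control replicates 1 to 4 and 3, 0, 8 and 2 in OGTi, which sums to 12 and 13. The groups overlapped, and 2 of 4 pairs were higher. DESeq2 gave it a log2 fold change of -0.14 ± 1.40 with no q, and its sign changed with the model and with the replicate left out. Cytochrome b5 and its reductases return cytoglobin to its reduced form. In a list of other globins and this system, the 6 genes with a q were all of this system, and none was a globin. Of these, 1 rose, 3 fell and 2 were not called (median -0.08). CYB5R1 rose by 0.85 ± 0.10 (DESeq2 q = 5.37e-15) and CYB5A fell by 0.53 ± 0.14 (DESeq2 q = 5.40e-04). CYB5R3, the most abundant of them and named after its values were seen, fell by 0.23 ± 0.07 and was not called without replicate 4.

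THY1 (chromosome 11, 119415476 to 119424985, minus strand) encodes a small membrane-anchored glycoprotein of fibroblasts, neurons and T cells. Its normalized counts in replicates 1 to 4 were 7206, 7496, 5570 and 5558 in control and 6449, 6874, 4324 and 4002 in OGTi. All 4 pairs were lower, but the groups overlapped, because replicates 1 and 2 were above replicates 3 and 4 in both. The log2 fold change was -0.28 ± 0.08, called with the replicate number in the model and not called without it (-0.25) or without replicate 4 (-0.22). Of its neighbours, USP2, 33.8 kb away, was not called (0.30 ± 0.42, DESeq2 q = 0.597), and NECTIN1, 198 kb away and itself an adhesion gene, rose by 0.98 ± 0.07 (DESeq2 q = 1.23e-43).

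ALCAM (chromosome 3, 105366909 to 105576900, plus strand) encodes an adhesion molecule that binds itself and CD6 of T cells. Its normalized counts in replicates 1 to 4 were 3540, 3868, 4477 and 3663 in control and 4321, 4449, 4373 and 4483 in OGTi. In 3 of 4 pairs OGTi was higher, and control replicate 3 stood within the OGTi range. The OGTi libraries were closer together, with a coefficient of variation of 1.66% against 10.7% in control. ALCAM had a log2 fold change of 0.19 ± 0.08. It was called with the replicate number in the model, and not without it (0.18) or without replicate 1 (0.15), replicate 2 (0.18) or replicate 4 (0.15).

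NCAM1 (chromosome 11, 112961275 to 113278436, plus strand), the neural cell adhesion molecule, had 5, 27, 18 and 13 counts in control replicates 1 to 4 and 17, 59, 25 and 16 in OGTi. Replicate 2 was the highest in both groups, all 4 pairs were higher in OGTi, and the groups overlapped. The mean was 16.1 ± 8.9 normalized counts in control and 28.7 ± 20.7 in OGTi. The log2 fold change was 0.81 ± 0.51, with a 95% interval from -0.19 to 1.81, and NCAM1 was not called.

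Other adhesion genes of the immunoglobulin superfamily moved in both directions. Of 19 with a q, 4 rose, 8 fell and 7 were not called, with a median of -0.05 over the 23 compared. Those compared included ST8SIA4, which had no q and encodes a polysialyltransferase of NCAM1, not an adhesion molecule. MCAM, a relative of ALCAM, went from 2209 ± 287 to 682 ± 85 normalized counts, which is -1.70 ± 0.10 on the log2 scale (DESeq2 q = 3.82e-57). BCAM, a laminin receptor, fell by 1.54 ± 0.11 (DESeq2 q = 2.77e-42). Named after their values were seen, the neural adhesion gene L1CAM fell by 1.12 ± 0.09 and ICAM1, a ligand of leukocyte integrins, rose by 1.13 ± 0.09.

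**Figure D4:**
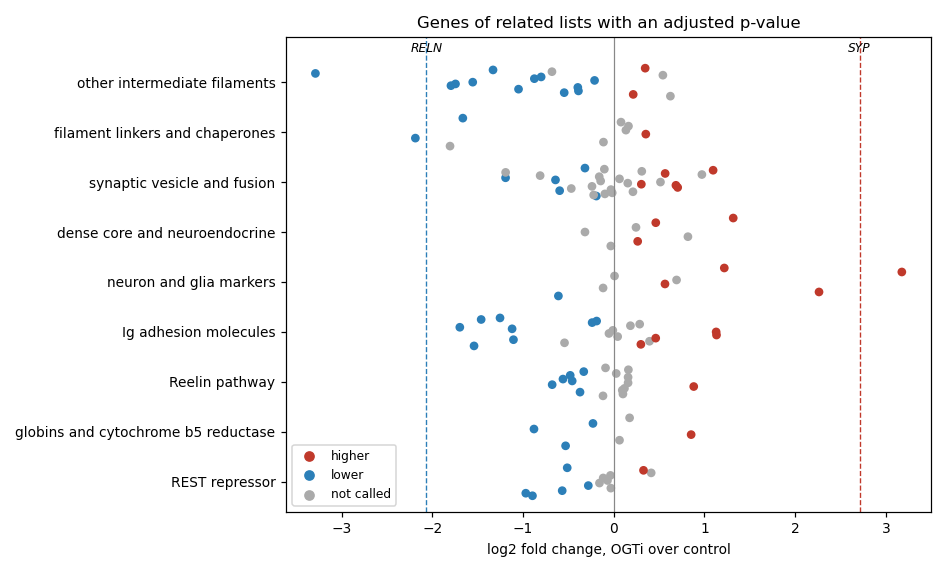
Log2 fold change of OGTi over control (horizontal axis) for each gene with a DESeq2 q in 9 related lists, coloured by its call (red higher, blue lower, grey not called), with the values of SYP (2.71) and RELN (-2.07) as dashed lines. The other intermediate filament genes have 12 lower and 2 higher calls, and of the neuron and glia markers only RBFOX3, at 3.18, lies beyond SYP.

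How far a gene followed the replicate number was examined beside the difference between groups by which the 10 genes were proposed. It is not independent of that difference, for which the libraries were paired by the same number, so what follows is a description. A DESeq2 likelihood ratio test of the replicate number beside treatment, chosen after the values were seen, called 6.46% of the 12296 genes to which it gave a q. Of the 6 marker genes with a q, 2 were called, NES (q = 1.54e-05) and THY1 (q = 9.42e-08). NES averaged 329, 191, 169 and 120 normalized counts over both libraries of replicates 1 to 4, and without replicate 1 it was not called (DESeq2 q = 0.427). THY1 averaged 6828, 7185, 4947 and 4780, and it was called whichever replicate was left out (DESeq2 q from 4.83e-07 to 5.90e-04). VIM had a q of 0.0515 in this DESeq2 test, or 0.0471 without replicate 3. SYP (DESeq2 q = 0.932), RELN (DESeq2 q = 0.997) and ALCAM (DESeq2 q = 0.818) were not called.

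The variation of each gene was also divided into shares. On the log2 scale, treatment took 97.6% of the sum of squares of SYP over the 8 libraries and 87.7% of that of RELN, and the replicate number took 1.27% and 1.22%. For NES the replicate number took 87.7% and treatment 6.96%, and for VIM 70.9% and 8.13%. For THY1 the replicate number took 74.8%. ALCAM was divided between treatment (50.4%), replicate number (24.4%) and the rest (25.3%). The shares of a gene divide the same sum, so a large treatment share leaves little for the replicate number, and all of them are descriptions. What differed between the replicates was not given in the labels.

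**Figure D5:**
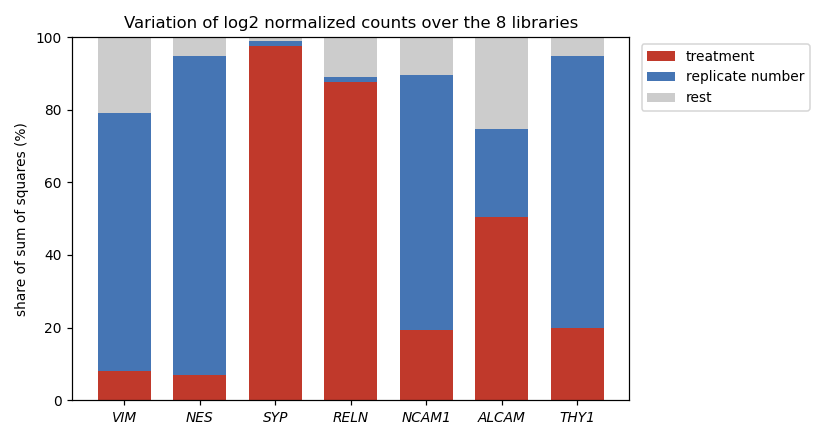
Share (vertical axis, %) of the sum of squares of log2 normalized counts over the 8 libraries taken by treatment (red), replicate number (blue) and the rest (grey) for 7 genes, leaving out DES, CYGB and GFAP for their low counts. Treatment takes 97.6% for SYP and 87.7% for RELN, and replicate number 87.7% for NES and 74.8% for THY1.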

How the data were processed

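RNA of 4 control and 4 OGTi cultures of LX-2 was sequenced from stranded, poly(A)-enriched libraries. The authors aligned the reads with Bowtie2 2.3.5.1 and deposited expected counts per gene from RSEM 1.3.1, estimated counts in which a read with several alignments is shared between genes, not scaled for depth (versions and the build, hg38, from the submitters' processing notes). In a library 12.9% to 16.3% of genes had a fractional value. The authors' comparison table, made with DESeq2 1.36.0 and holding fold changes and p-values, was not used.

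Expected counts were rounded, and genes with a total under 10 were left out. DESeq2 1.42.0 (R 4.3.3) then compared the remaining 14895 by its Wald test, with replicate number as a block, as the study's methods pair the samples, and with Benjamini-Hochberg adjustment over all genes. Fold changes were not shrunken. Deviations from the group means correlated at 0.372, 0.391, 0.165 and 0.327 between libraries of the same number over 10994 genes, though control replicate 3 was closer to OGTi replicate 4 (0.343). The study's methods describe the 4 replicates of a group as independent experiments. Limits for counts of 0 (3 counts) cover counting error only, while intervals of fold changes come from the DESeq2 standard error, which includes the spread between replicates. Alternatives were edgeR 4.0.16, no block, other size factors and filters, and leaving out each replicate. Statistics were tested on simulated data.

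The 10 genes and the related lists were chosen with earlier results of these data known. Genes named were the 10, the 2 per list with the largest absolute Wald statistic, up to 2 direct partners of a member, the nearest compared genes, and the 3 genes most like SYP and RELN. Some genes of these lists are not reported here. Neighbours are given for SYP, RELN and THY1, and of all 20 neighbours 4 rose, 4 fell and 12 were not called. Per-kilobase sums of markers of other cells were 6.16 to 21.6 in control and 7.44 to 21.1 in OGTi libraries for hepatocytes, 42.3 to 87.0 and 21.9 to 47.5 for cholangiocytes, 13.9 to 17.9 and 2.62 to 7.08 for endothelium, and 1400 to 2302 and 3169 to 5304 for macrophages and lymphocytes, nearly all of it CD68. Of 14 HSC and myofibroblast markers, 10 had a q, of which 1 rose and 7 fell. Positions are from GENCODE 44, matched by symbol.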

Additional observations from a re-analysis of the deposited data

Results flagged for a closer look

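Of 20 groups of 4 libraries (the 10 genes in control and in OGTi), 1 had a library far from the others by Dixon's test. Chance flags about 1 in 20 where values are continuous. GFAP in OGTi replicate 1 stood at 2.74 normalized counts, from 3 counts, while the other 3 OGTi libraries had 0. That rate does not hold for this group, since with 3 libraries at 0 any count in the other one is flagged. A count of 3 is no more than what a count of 0 allows.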

How the results depend on the processing

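Of the 10 marker genes, 4 were called with the replicate block, and 2 with no replicate block, in DESeq2 and in edgeR alike. Leaving out a replicate gave 2 to 4 calls, with 2 without replicate 4. SYP and RELN were called in every alternative, ALCAM and THY1 were those lost, and VIM was gained without replicate 1. Dropping the block changed the number of calls in no related list by over 1.5 times, and with the pairing 6541 genes in all were called, against 6307. The dense core and neuroendocrine list went from 3 calls to 5 in edgeR with the block, the cause of which was not tested. The log2 fold change of CYGB turned from -0.14 to 0.056 with no block, 0.048 in edgeR with no block, 1.03 without replicate 2 and 0.37 without replicate 4, and it ran from -1.29 to 1.03 when a replicate was left out. That of DES kept its sign, between -3.08 without replicate 1 and -1.24 in edgeR with no block, and was called in no alternative. That of SYNGR2 turned to -0.012 without replicate 3 (-0.012 to 0.13), and that of PRICKLE3 to 0.41, 0.60 and 0.23 without replicates 1, 2 and 4 (-0.90 to 0.60). Of the alternative fold changes of single genes, 664 kept direction and call, 24 lost the call, 1 gained it and 8 turned. With the shortest transcript as length, 14 of 20 levels moved by more than the spread between replicates, that of SYP to 56.3 in control and 365 in OGTi libraries. The genes most like SYP and RELN kept their ranks with a pseudocount of 0.5. Depth limits DES, GFAP and CYGB.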
